A study of Mus musculus with 2 samples.

Results

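The cytosolic ribosomal protein genes encode the protein parts of the ribosome that translates the messages of the nucleus. Members were chosen by symbol among the protein-coding genes of GENCODE M21: Rpl or Rps followed by a number, with an optional a, l, x or y, or Rplp0, Rplp1, Rplp2 and Rpsa. This gave 80 genes of 21938, of which 49 belong to the large subunit and 31 to the small subunit. The rule uses symbols and no measured value. The accessibility of their promoters was read from DNase-seq of thymus taken from 10-day-old female mice of the strain B6CASTF1/J, a first-generation hybrid of C57BL/6J and CAST/EiJ. DNase-seq treats nuclei with the nuclease DNase I, which reaches open chromatin first: stretches with an excess of cuts are called peaks, and short stretches protected inside them, as a bound protein leaves, are listed as footprints. The 2 libraries, biological replicates 1 and 2, came from separately numbered females that carry the same donor identifier, and form 1 group with no treatment, no engineered allele and no control. Since nothing was contrasted, values are given per replicate beside those of all protein-coding genes, with no test, and the spread between replicates is that between 2 libraries.

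Ribosomal protein genes are among the most highly transcribed genes of growing cells, and most of their products are needed in equal numbers. Their messages typically begin with a cytosine followed by a run of pyrimidines, the 5′ terminal oligopyrimidine tract, through which growth signals control their translation. Thymus is rich in dividing thymocytes, which depend on ribosome production. Several members also have copies with restricted expression, in muscle or in the male germ line.

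The tissue label was checked on marker genes. All 8 thymocyte markers (Cd3e, Cd4, Cd8a, Cd8b1, Lck, Ptcra, Rag1 and Rag2) had a promoter peak in both replicates, at 3.21 to 11.0 times the height of the library's median peak, and Cd4 was the lowest. None of 5 hepatocyte markers had one in either replicate. Among 5 skeletal muscle markers Ckm (6.31) and Mylpf (10.1) had one in both replicates, within the range of the thymocyte markers. Among 6 male germ cell markers it was Dazl (3.82) and Prm1 (4.34), and among 4 thymic epithelium markers Aire and Ccl25 (6.84 to 10.5), while Foxn1 and Psmb11 had none. Replicate 1 had 132737 peaks and 375374 footprints, and replicate 2 had 69798 peaks and 210014 footprints. In bulk tissue, fewer cells with an open site and a less open site per cell cannot be told apart.

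Sequences at the members' annotated starts are shown first, since the tract marks the start from which footprints were later measured. A start was counted as holding a tract where its base was C and the next 4 bases were all C or T. The GENCODE reference start (that of the principal transcript) held one in 8 of 80 members (10%) against 2.27% of all protein-coding genes. Any GENCODE or RefSeq start (RefSeq promoter table, GRCm38.p6, with 60 members found) held one in 41 members (51.2%), against 11.9% of the 12547 genes with a promoter peak in both replicates. Members have more annotated starts, with a median of 6 per gene against 3. The tracts were 5 to 17 bases long. In the following lines each sequence runs 5′ to 3′ from 10 bases before the start, on GRCm38.p6, and the tract is in capitals.
Rps24, small subunit, chr14:24490708-24490732, + strand: gtgagcggtcCTCTTTTCCTCCTCT
Rpl27a, large subunit, chr7:109519186-109519210, + strand: gtgagctcctCCCTTTTCCCTTTCT
Rpl32, large subunit, chr6:115808733-115808757, − strand: gccgccgcctCTTCCTTCTTCCTCg
Rpl5, 5S RNP, chr5:107900562-107900586, + strand: tgactccggtCTTTTTCCCCCTTag
Rps2, small subunit, chr17:24720100-24720124, + strand: gcgcctccctCTTCTTCTTCTTCgg
Rpl10, large subunit, chrX:74270847-74270871, + strand: gtgggagcgtCTCTTTTCCTCTggc
Rps19, small subunit, chr7:24884623-24884647, + strand: ccccgtcgttCCCTTTCCCCTggct
Rps6, small subunit, chr4:86857353-86857377, − strand: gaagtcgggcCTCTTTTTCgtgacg
The Rps24 tract is the longest of all, at 17 bases, and runs past the printed stretch. A footprint of both replicates lay over a tract start in 5 of the 41 members (12.2%), among them Rps25 and Rpl35. This was so in 9.95% of the 1488 genes with a tract start and a promoter peak in both replicates. The start with the longest tract lay within 100 bp of a peak in both replicates in 92.7% of members and 48.4% of other genes, so these shares are not matched. Where the start with the longest tract lay within 100 bp of a peak in both replicates, its first base was footprinted in 13.2% of 38 members and 17.7% of 701 other genes.

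Nearly every ribosomal protein promoter was open in both replicates. A promoter peak, meaning a peak within 500 bp of any annotated start, was found for 77 of 80 members in replicate 1, where 63.4% of all protein-coding genes had one. In replicate 2 it was also 77, against 57.8%. In both replicates together it was 77 (96.2%), against 57.2%. All 31 small subunit members and 46 of 49 large subunit members had one. With the reference start alone, 75 members and 52.9% of all genes had one. A CpG-rich promoter, with an observed over expected CpG ratio of at least 0.6 in the 300 bases around the reference start, was held by 63 members (78.8%) and by 46.8% of all genes. Of these, 61 of 63 members had a peak in both replicates, against 87.9% of all CpG-rich genes. Of the 17 members under that ratio 16 had one, against 30.2% of all such genes. The ratio belongs to the reference start, whereas the peak could lie at any annotated start. At Rps14 (0.14), Rps10 (0.32) and Rpl17 (0.30) the highest peak lay more than 500 bp from the reference start in both replicates. There the ratio does not describe the site of the highest peak.

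The 3 members without a promoter peak were all copies of restricted expression. Rpl10l, a copy of Rpl10 known from the male germ line, has 1 exon on chromosome 12 (66283379 to 66284401). Rpl39l, a copy of Rpl39 likewise known from male germ cells, lies on chromosome 16 (10170226 to 10174911). Rpl3l, a copy of Rpl3 made in muscle, lies on chromosome 17 (24727820 to 24736143). None of the 3 had a footprint within 500 bp of a start, or a base in the deposited listing of the false discovery rate of the cut rate, in either replicate. The nearest peak lay 24360 and 607071 bp from Rpl10l, 22513 and 22605 bp from Rpl39l, and 3260 and 3280 bp from Rpl3l in replicates 1 and 2. Their parents were open: Rpl10 had deposited heights of 5.03 and 6.42, Rpl39 of 4.18 and 4.17, and Rpl3 of 15.7 and 12.9. Rps27l, a copy of Rps27 that is expressed widely, was the exception among the copies, with heights of 4.96 and 4.55 against 7.55 and 4.11 at Rps27. Promoter sequences of the 3 closed copies, from 80 bases before to 20 after the reference start, are shown for comparison with those of open members. They are in lower case throughout because no base lay in a footprint.
Rpl10l, chr12:66284382-66284481, − strand: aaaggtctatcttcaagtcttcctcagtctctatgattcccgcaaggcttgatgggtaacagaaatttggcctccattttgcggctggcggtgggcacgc
Rpl39l, chr16:10170146-10170245, + strand: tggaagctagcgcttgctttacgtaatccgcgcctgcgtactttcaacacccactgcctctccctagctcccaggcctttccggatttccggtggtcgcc
Rpl3l, chr17:24727740-24727839, + strand: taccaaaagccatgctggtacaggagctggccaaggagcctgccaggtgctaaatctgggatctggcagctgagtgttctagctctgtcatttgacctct

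Open member promoters were higher than the typical open promoter and spread over a wide range. Height is the authors' own value of a peak, and the highest promoter peak was taken for each gene in each replicate. The replicates could thus differ in the peak taken. As deposited, the median over the 77 members was 8.17 in replicate 1 and 6.91 in replicate 2, against 4.30 and 4.07 over all genes with a promoter peak. Divided by the library's median peak (0.625 and 0.828), it was 13.1 (4.10 to 30.4) and 8.34 (2.43 to 18.2), against 6.88 and 4.92. The mean of the 2 member medians was 10.7 ± 3.34 (SD, n = 2). The median peak was higher in replicate 2, so this division set the replicates further apart than their deposited heights. A peak above the library's median was held by the same 77 of 80 members (96.2%) in both replicates, and by 55.2% and 50.5% of all genes. The median member stood at the 79.1st percentile of promoter heights in replicate 1 and at the 71.0th in replicate 2. In the highest 10% of promoters were 16 of 77 members (20.8%) in replicate 1 and 11 (14.3%) in replicate 2. Among CpG-rich promoters alone, the median of the mean height was 11.9 for 61 members and 7.69 for all 9021 genes.

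**Figure D1:**
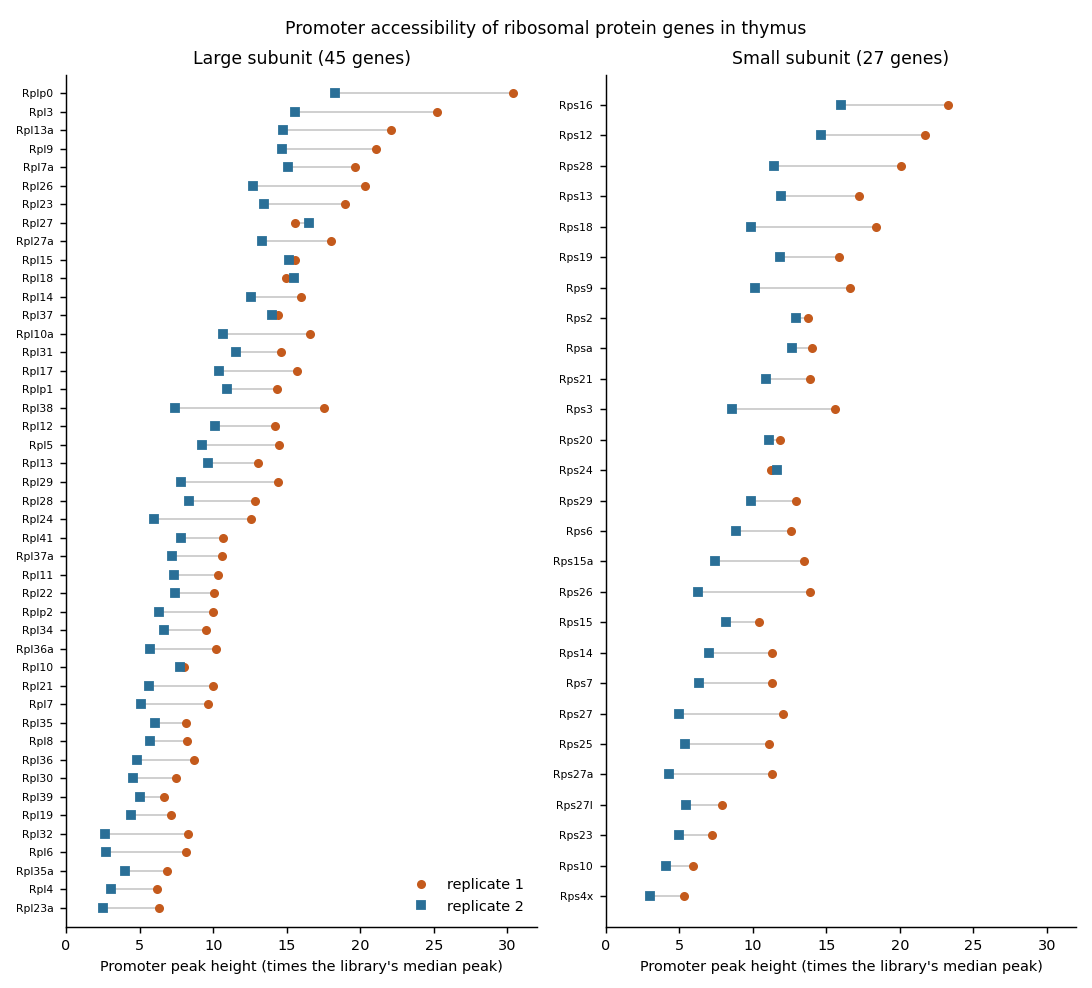
Promoter peak height of 72 of the 77 members with a peak, as times the library's median peak (x axis), for replicate 1 (circles) and replicate 2 (squares), sorted by their mean within each subunit. Rplp0 stands at the top with 30.4 and 18.2, and 69 of the 72 members drawn lie lower in replicate 2 on this scale.

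In the large subunit the highest promoter was that of Rplp0, which anchors the ribosomal stalk where translation factors dock. Its deposited heights were 18.99 and 15.1, or 30.4 and 18.2 times the median (24.3 ± 8.57, SD, n = 2), and it was the highest of all members in both replicates. The other 2 stalk proteins were lower: Rplp1 stood at 14.3 and 11.0 times the median and Rplp2 at 9.99 and 6.31. Rpl3, a core protein next to the peptidyl transferase centre, followed Rplp0 with 25.2 and 15.6 times the median (20.4 ± 6.78, SD, n = 2). Rpl13a, which is released from the ribosome in an interferon response, stood at 22.1 and 14.7. Rpl9 stood at 21.1 and 14.6, Rpl26, near the exit tunnel, at 20.3 and 12.7, Rpl7a at 19.6 and 15.1, and Rpl23 at 18.9 and 13.4. Replicate 1 followed this order throughout. In replicate 2 Rpl7a stood above Rpl13a, Rpl9 and Rpl26, and Rpl23 stood above Rpl26. Replicate 2 was lower at 74 of 77 members on this scale, so the SDs include a difference shared across promoters.

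Proteins that share a place in the ribosome differed in promoter height. Of the 6 exit tunnel proteins, Rpl26 had a mean of 16.5 times the median and Rpl17 of 13.0, whereas Rpl35 had 7.07, Rpl39 5.86, Rpl4 4.61 and Rpl23a 4.41. The 5S RNP proteins, which also bind Mdm2 when ribosome assembly fails, stood at 14.4 and 9.27 (Rpl5) and at 10.3 and 7.31 (Rpl11). Rpl22, whose loss is known to arrest αβ T-cell development, stood at 10.0 and 7.42 times the median (8.73 ± 1.85, SD, n = 2), below the median member in both replicates.

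In the small subunit Rps16 was highest, with deposited heights of 14.6 and 13.3, or 23.3 and 16.03 times the median (19.7 ± 5.14, SD, n = 2). Rps12 followed at 21.7 and 14.6 times the median, below Rps16 in each replicate. Rps6, the target of the S6 kinases, stood at 12.6 and 8.85 times the median, and Rpsa, which is also known as the laminin receptor, at 14.0 and 12.7. The 9 genes best known for mutations in Diamond-Blackfan anaemia, a failure of red cell production, were all open, from 4.99 (Rps10) to 13.9 (Rps19) times the median, with a median of 10.1.

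Among the lowest open members were Rps4x (5.31 and 2.99 times the median), Rpl23a (6.30 and 2.52), Rpl4 (6.19 and 3.03), Rps10 (5.91 and 4.08) and Rpl35a (6.84 and 4.0). The highest mean among members was 7.44 times the lowest. All 5 lay below the median promoter of all genes (6.88) in replicate 1, and below the corresponding 4.92 in replicate 2. The 4 members on the X chromosome, Rps4x, Rpl39, Rpl10 and Rpl36a, had a median of 6.88 times the median, against 11.4 for 73 autosomal members. All open genes on the X chromosome had 3.72, against 6.60 on autosomes.

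Promoter sequences from both ends of the range are shown with their footprinted part. They run from 80 bases before to 20 after the reference start on GRCm38.p6, with bases in footprints of both replicates in capitals. They are the 3 highest members and Rps4x, among the lowest.
Rplp0, chr5:115559387-115559486, + strand: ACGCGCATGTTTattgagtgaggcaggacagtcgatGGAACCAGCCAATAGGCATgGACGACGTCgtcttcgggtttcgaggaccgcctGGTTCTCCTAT
Rpl3, chr15:80083387-80083486, − strand: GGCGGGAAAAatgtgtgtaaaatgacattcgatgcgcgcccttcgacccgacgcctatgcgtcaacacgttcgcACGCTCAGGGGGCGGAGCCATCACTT
Rps16, chr7:28350572-28350671, + strand: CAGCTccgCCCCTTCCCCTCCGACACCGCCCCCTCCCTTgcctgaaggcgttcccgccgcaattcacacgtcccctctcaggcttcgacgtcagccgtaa
Rps4x, chrX:102189375-102189474, − strand: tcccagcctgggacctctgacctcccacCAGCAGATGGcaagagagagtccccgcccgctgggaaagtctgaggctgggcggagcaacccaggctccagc
In these 100 bases, 51 were footprinted at Rplp0, 36 at Rpl3 and 36 at Rps16, against 10 at Rps4x. In the same stretch 26 were footprinted at Rpl13a (22.1 and 14.7 times the median). At Rps19, with a mean of 13.9 times the median, it was 13.

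Replicate 2 gave lower member heights than replicate 1 on the scale of the library's median, as it did at most promoters. The median log2 ratio of replicate 2 over replicate 1 was -0.55 for members and -0.55 for all genes, and 74 of 77 members were lower against 93.3% of genes. On deposited heights it was -0.14 for members and -0.15 for all genes, with 60 of 77 members lower against 65% of genes. The members that were not lower on the first scale were Rpl27, Rpl18 and Rps24. At Rpl18 the highest peak was a different one in each replicate, so its ratio does not compare the same site. The largest differences were at Rpl32, with deposited heights of 5.18 and 2.17, at Rpl6 with 5.11 and 2.25, at Rps27a, a fusion with ubiquitin, with 7.09 and 3.59, and at Rpl23a with 3.94 and 2.09. With 1 library each there is no test of these differences. Across the 77 members the log2 deposited heights of the replicates had a Pearson r of 0.877 and a Spearman rho of 0.866, and across the 12547 genes 0.953 and 0.955. These are descriptions over genes, which share their libraries.

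Genes of the same pathway were open as well, and those whose messages also carry the tract stood highest among the larger groups. All 15 translation factors with such messages, among them Eef1a1, Eef2 and Pabpc1, had a promoter peak in both replicates, with a median of 13.1 times the library's median. All 10 factors known at ribosomal protein promoters (Gabpa, Yy1, Sp1, Myc and others) had one, with 10.5, as did all 26 ribosome assembly genes with 8.88 and all 11 RNA polymerase I genes with 8.67. The 78 mitochondrial ribosomal proteins, whose ribosome is a separate machine, were all open too, with a median of 7.58. The same median over the 77 members was 11.3, and over all genes with a peak in both it was 6.45. Ribosomal proteins outside the symbol rule were open in 6 of 7 cases: Rpl22l1, the copy of Rpl22, stood at 18.7, Fau, which yields Rps30, at 17.1, and Rack1 at 6.50 times the median. Rps27rt had no peak. Rps3a1, which carries a further digit in its symbol and so falls outside the rule, stood at 20.98 ± 3.87 times the median (SD, n = 2).

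**Figure D2:**
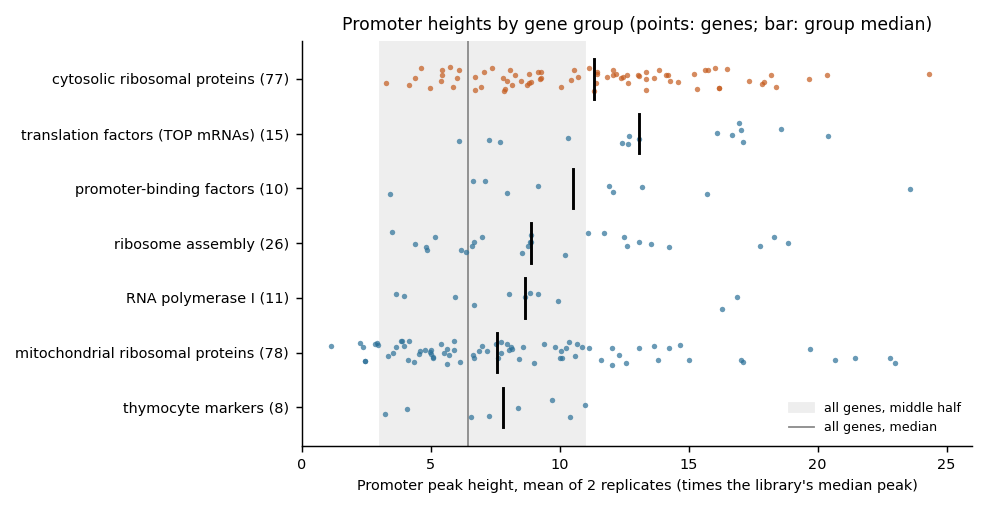
Mean promoter height over 2 replicates, as times the library's median peak (x axis), for each gene with a promoter peak (points) in 7 groups, with the group's median as a bar and the number of genes in parentheses. Shading and the grey line give the middle 50% and the median of all genes. The cytosolic ribosomal proteins have a median of 11.3, against 7.58 for the mitochondrial ribosomal proteins and 6.45 for all genes.

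Every open member promoter held footprints seen in both replicates. A footprint of replicate 1 sharing at least 1 bp with a footprint of replicate 2 lay within 500 bp of a start in 77 of 80 members, against 54.1% of all genes. Of genes with a promoter peak in both replicates, 94.5% had one. Members had a median of 6 shared footprints (2 to 11) and all open genes 5. Around the reference start alone these were 6 and 5. Among promoters of equal height, from 7.90 to 14.1 times the median, 39 members had a median of 5 and 3366 other genes of 6. The most were at Rps19 (11), the gene most often mutated in Diamond-Blackfan anaemia, and Rps14 (11). Both have 10 annotated starts, against a median of 6 in members, so that their windows can cover more sequence. Rps4x, one of the lowest promoters, was among those with 2, as was Rps27 at a mean of 8.52 times the median.

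Without matching for promoter height, a shared footprint near the start was held by more members than other open genes, on both sides. Mean heights had a median of 11.3 times the library's median in members and 6.45 in all open genes. At equal heights, as given above, members had no more footprints within 500 bp of the reference start (5 and 6). From the reference start, the 50 bases upstream held a shared footprint in 63 of 77 members (81.8%) and in 62.7% of 12470 other genes. The 50 bases before these held one in 74% and 59%, and the first 50 bases of the message in 64.9% and 53.2%. Bases 51 to 100 held one in 57.1% and 41.8%, and the 100 bases after those in 51.9% and 30.8%. In the 100 bases that begin 300 bases before the start, the shares were 26% and 28.4%.

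Footprints were then placed by their distance from the pyrimidine tract. This alignment was chosen after the data had been seen. It used the start with the longest tract, where that start lay within 100 bp of a peak in both replicates, for 38 members and 701 other genes. At 48 bases before the tract a footprint of both replicates covered 22 of 38 members (57.9%), against 25.7% of the other genes, whose own highest share was 26.4%, at 40 bases before. Lower maxima lay at 137 bases before, with 17 of 38 members (44.7%) against 15.98%, at 69 and at 16 bases before, each with 36.8% of members against 23.5% and 21.7%, and at 199 bases before, with 12 of 38 (31.6%) against 9.56%. These positions were picked as the members' own maxima, so that the gaps at them are descriptions only. Among bases 1 to 15 from the tract start, the members' lowest share was 2 of 38 (5.26%), at base 3, against 18.4% of the others. The lowest share of the others there was 15.8%, at base 12. Among bases 16 to 40 the members' highest share was 34.2%, at base 20, against 15.5%. Both positions were picked from the members' own values, so that these gaps too are descriptions only. Averaged over bases 1 to 20, the shares were 15.8% in members and 17.1% in the others. The 50 bases before the tract held a shared footprint in 36 of 38 members (94.7%) and 67.8% of the others.

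**Figure D3:**
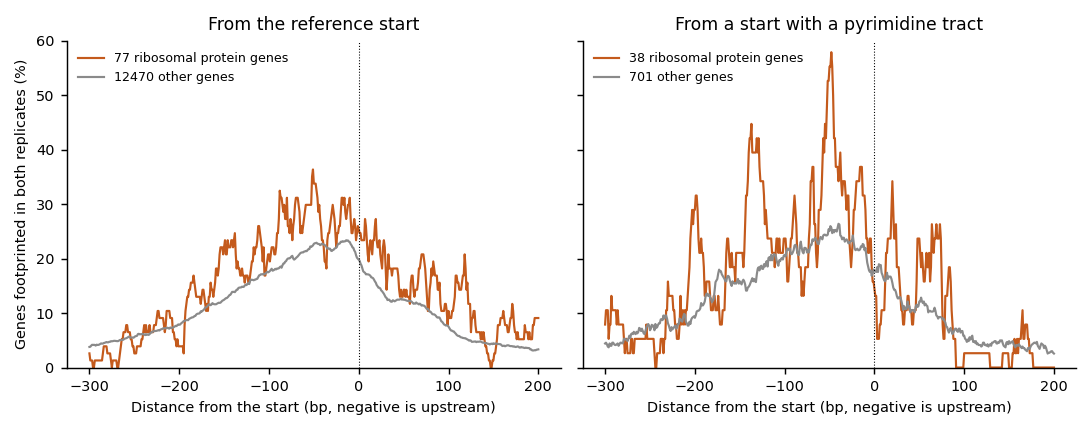
Share of genes whose base lies in footprints of both replicates (y axis, %) by distance from the reference start (left) and from a start with a pyrimidine tract (right), for ribosomal protein genes and other genes with a promoter peak in both. In the right panel members reach 57.9% at 48 bases before the start, and other genes 25.7% there.

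**Figure D4:**
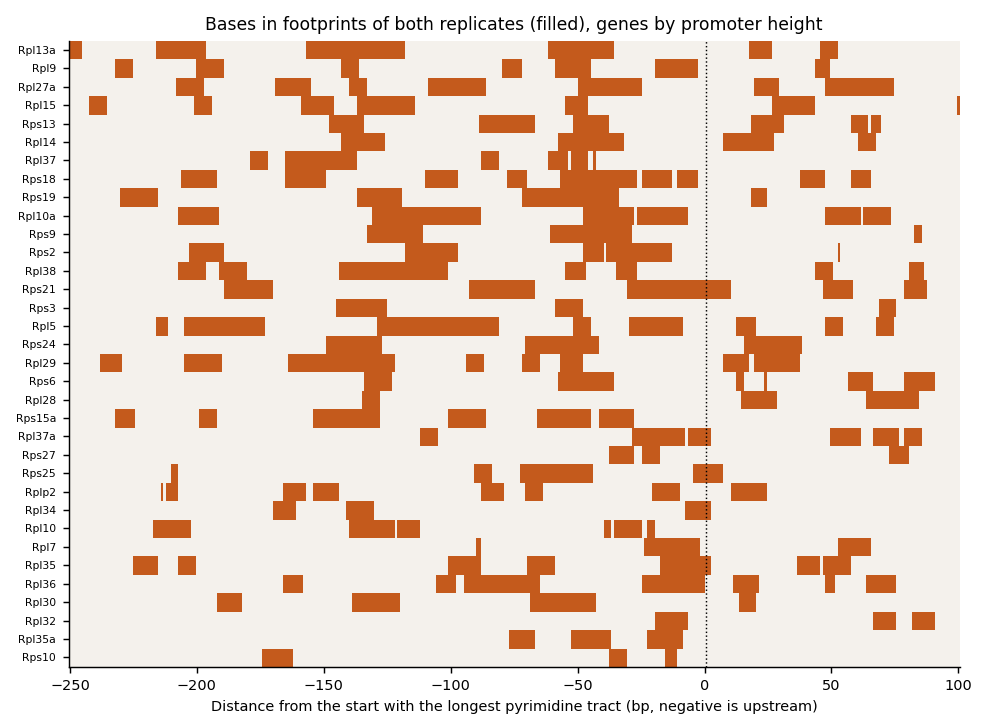
Each row is 1 of 34 of the 38 members aligned on the longest pyrimidine tract, sorted from the highest to the lowest promoter, and filled stretches are bases in footprints of both replicates along the distance from the start (bp). The base 48 before the start is filled in 20 rows, and base 3 of the tract in 2.

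The 38 members had higher promoters than the 701 other genes, with medians of 11.7 and 7.02 times the library's median. At equal heights, from 8.09 to 13.8, the 50 bases before the tract held a shared footprint in 17 of 18 members (94.4%) and in 139 of 176 other genes (79%). The tract starts of members and of other genes alike rest on annotation alone, and whether their messages begin there was not tested.

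The footprints at that place overlapped different motifs. Of the 22, which were 7 to 46 bases long with a median of 27, 5 overlapped an SP1/KLF match, 4 an ETS/GABP match (at Rpl37 only in part) and 3 a Kaiso-like match, while 9 overlapped none of those searched on both strands, the TATA box not counted. No such counts are given for footprints of other genes. Around the tract starts, with or without a footprint, SP1/KLF matches were found in 47.4% of the 38 members and 60.2% of the 701 other genes. ETS/GABP matches were found in 36.8% and 18.1%, and Kaiso-like matches in 13.2% and 1.14%. The replicate 1 footprints are shown for 8 of the 13 with a match, in the direction of the gene, with the matched bases in capitals. Some lie in exons of longer annotated transcripts.
Rps25, ETS/GABP, chr9:44407622-44407650, + strand: cgtggctccacccattgccCCGGAAGtac
Rpl13a, SP1/KLF, chr7:45128767-45128799, − strand: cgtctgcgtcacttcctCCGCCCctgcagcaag
Rpl14, SP1/KLF, chr9:120571459-120571484, + strand: tggacgtcggGGGCGGggcttctgcc
Rpl35a, SP1/KLF, chr16:33056429-33056444, + strand: cggagagGGGCGGggc
Rpl27a, NF-Y and SP1/KLF, chr7:109519146-109519170, + strand: cATTGGtcCCGCCCccgcgcctgct
Rpl10a, Kaiso-like, chr17:28328529-28328554, + strand: gcaactCTCGCGAGaacgcgggctct
Rps6, Kaiso-like, chr4:86857404-86857425, − strand: cggctgttCTCGCGAGaactta
Rps9, CRE and ZNF143, chr7:3703977-3704011, + strand: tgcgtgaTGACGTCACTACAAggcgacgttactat
Rps19 held the palindrome CTCGCGAG 2 times in its footprint there, at chr7:24884561-24884598.

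Over all 80 members, the letters of 12 motifs were counted from 250 bases before to 50 after the reference start, on both strands except for the TATA box. A match is a run of letters and no proof of binding. The ETS/GABP motif CCGGAAG was found in 23 members (28.8%), against 11.2% of all genes and 17.8% of genes with a promoter peak in both, and 14 of its 28 matches (50%) overlapped a footprint of both replicates, against 46.5% of the matches in all genes. The Kaiso-like palindrome CTCGCGAG was found in 8 members (10%), against 1.21% of all genes and 1.94% of open genes, and 5 of 8 matches (62.5%) lay in footprints, against 56.1% of those in all genes. Among these 8 were Rps6, Rpl27a, Rpl4, Rpl26, Rpl10a and Rps28. The ZNF143 letters ACTACAA were found in 11 members (13.8%), against 3.74%, the YY1 letters AAGATGG in 10 (12.5%), against 6.29%, and the CRE letters TGACGTCA, which share 1 base with ACTACAA at Rps9, in 5 (6.25%), against 2.5%. From 100 bases before to 20 after the start, the YY1 letters were found in 2 members (2.5%), against 2.16% of all genes. Any of the 12 motifs was found in 82.5% of members and 79.4% of all genes.

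Other motifs were about as common in members as elsewhere, or less so. The SP1/KLF letters GGGCGG were found in 39 members (48.8%), against 45.3% of all genes and 64.3% of open genes. Of the SP1/KLF matches in open members 72.6% overlapped a footprint, against 51.3% of those in all open genes. These sets are not matched for promoter height. From 500 bases before to 500 after the start the shares were 38.6% and 34.6%. CCAAT, the letters of NF-Y, was found in 31.2% of members and 38.5% of genes, the Myc E-box CACGTG in 11.2% and 7.76%, and the NRF1 letters GCGCATGC in 5% and 3.74%. The lymphoid motifs were no more frequent in members, with RUNX (TGTGGTT) at 3.75% against 4.91% and TCF (CTTTGAA) at 2.5% against 4.9%. The TATA box TATAAA, 40 to 15 bases before the reference start on the sense strand, was found in no member and in 2.63% of genes. Measured from the tract, TATAAA was found in 1 of 38 members (2.63%) and in 0 of 701 other genes. The shorter letters TATA, which are not among the 12 motifs, were found in that window in 8 of the 38 members (21.1%) and in 10 of the 701 other genes (1.43%).

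**Figure D5:**
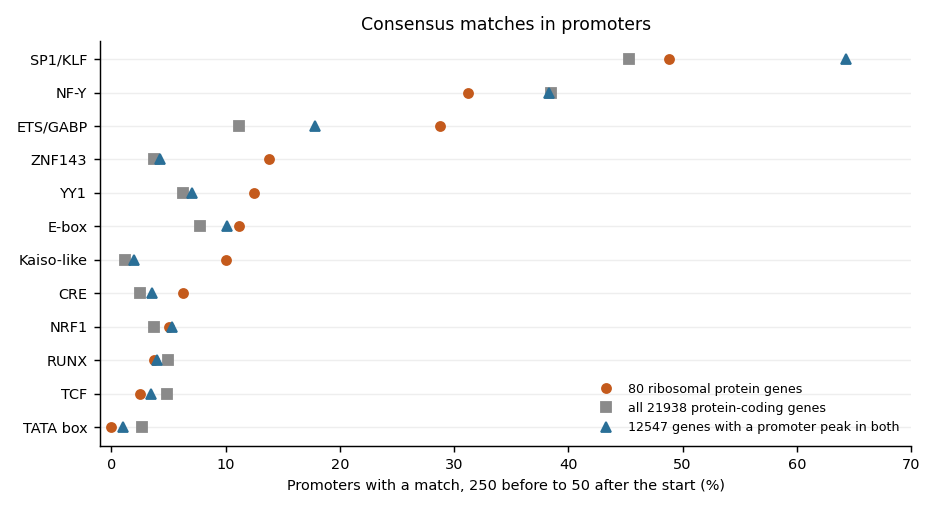
Share of promoters (x axis, %) with a match to each of 12 motifs (y axis) in 250 bases before to 50 after the reference start, for the 80 members (circles), all genes (squares) and genes with a promoter peak in both replicates (triangles). Members lie to the right of both gene sets for ETS/GABP (28.8%), ZNF143 (13.8%), YY1 (12.5%) and the Kaiso-like motif (10%), and left of open genes for SP1/KLF (48.8%).

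Beyond the promoter, members are short genes, with a median length of 3328.5 bp against 17425 bp for all genes, and 29 of 80 (36.2%) hold a small nucleolar RNA gene, against 1.18% of all genes. The highest member peak lay within 500 bp of another protein-coding start in 14 of 77 members, among them Rpl9 with Lias and Rpl7a with Med22, so the peak cannot be assigned to 1 gene. This was so for 19.6% of all open genes. The mean height of these 14 had a median of 10.3 times the library's median, against 11.3 for the other 63. Peaks inside the gene beyond 500 bp of any start were found in 22 members in replicate 1 and 16 in replicate 2, with no share of all genes to set beside them. The highest lay in Rpl3, at 13.3 and 6.82 times the median, followed in replicate 1 by Rpl12 (5.09 and 3.20) and Rpl26 (4.34 and 1.41). Ribosomal protein genes have many processed copies in the genome, and whether reads were lost to or gained from these was not tested. Of the 77 replicate 1 peaks, 56 held a stretch found elsewhere in the primary assembly at 90% identity, with a longest stretch of 123 bp, at Rpl29, and a median of 19.8% of the peak. No share for the peaks of other genes is given. Whether reads of either parental allele were lost in alignment was not tested.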

How the data were processed

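Deposited for each library were 2 peak files, a footprint list and a listing of the false discovery rate of the cut rate, all on mm10 per the labels and the README deposited with each sample. The deposited peak signal (column 7) is the peak's height, and peaks were deposited per library. The deposited footprint list holds a value of 0.01 in every row, treated as a p-value threshold, and the deposited cut-rate listing holds q-values (FDR). The peak and footprint callers, their settings and the number of reads are not given in the sources used here, so no counting interval is printed. The README does not tell the 2 peak files of a library apart: the larger by rows was used and the smaller served as an alternative, which lowers the median member height from 10.7 to 6.88 times the library's median.

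Genes and starts came from GENCODE M21, and sequence from GRCm38.p6. No peak lay beyond the end of any of its 21 chromosomes. Coordinates are 1-based. Peaks within 500 bp of a start were counted with pandas 2.3.3, motifs with pysam 0.24.0 and copies with BLAST+ 2.17.0. Overlap functions were tested on simulated intervals. Named genes were the 10 highest and 6 lowest members, all without a peak, the 3 with most footprints, the 4 with the largest replicate difference, those on the X chromosome and fixed functional groups. A few further genes were named after their values were seen. The values of 5 members are not reported here by name; they remain in all counts and medians. The members (by symbol), lists and tests were chosen with earlier results of these data known. Alternatives changed the window, starts, peak file, scale, overlap, tract and motif window, and left out each replicate.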

Additional observations from a re-analysis of the deposited data

How the results depend on the processing

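The number of members with a promoter peak was 75 to 77 and that with a shared footprint 75 to 77 under every alternative run, and leaving out either replicate gave 77 for both. The median height of 10.7 times the library's median became 6.88 with the smaller peak file and 7.12 with equal numbers of highest peaks. Over the median of all promoter heights it was 1.80. That dividing median is 6.88 and 4.92 times the library's median in replicates 1 and 2. With a replicate left out the median height was 8.34 to 13.1 times the library's median. Of the counts, tract starts depended most on the start used: 8 members at the reference start, 5 when the next 6 bases had to be pyrimidines, 34 with any GENCODE start (42.5%, against 8.52% of all genes), and, added after the data were seen, 13 of the 60 found in RefSeq with any RefSeq start (21.7%, against 2.71%) and 41 with either. The log2 difference between replicates was -0.14 on deposited heights in place of -0.55. Members with any of the 12 motifs numbered 66 (82.5%, against 79.4% of all genes), 53 in the narrower window (66.2%, against 61.3%) and 78 in the wider (97.5%, against 97.2%). No paired analysis was possible because there is 1 group. The aligned footprint pattern rests on 38 members and 2 libraries. Read depth is unknown.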
